A study of Mus musculus with 3 samples.

Results

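The Janus kinases (JAKs) and the signal transducers and activators of transcription (STATs) were examined in mouse embryonic fibroblasts (MEF) with and without n-Butylidenephthalide (BP), a compound of Angelica sinensis. The set was taken by name, as every array probe listed for Jak1, Jak2, Jak3, Tyk2, Stat3, Stat4, Stat5a, Stat5b or Stat6, which gave 9 genes with 14 probes among 35696 gene names with 55681 probes. Each of the 9 names had at least 1 probe. MEF are a primary culture of the cells released from minced and digested embryos, here of C57BL/6 mice, with internal organs, heads and legs taken off first. All cultures were kept in DMEM with heat-inactivated FBS, and they differed in the labels by BP alone: none in the control, 10 µg/ml in BP10 and 40 µg/ml in BP40. The labels record no treatment for the control and the paper describes it as DMSO, and the length of the treatment is not given in the sources used here. Each condition had 1 Cy3 array, so there are no replicates, no p-values and no spread between cultures, and every ratio below compares 2 arrays.

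Most cytokine receptors have no enzyme of their own and carry a JAK on each chain. When a cytokine brings the chains together, the JAKs phosphorylate each other and the receptor, a STAT docks and is phosphorylated, and STAT dimers enter the nucleus and bind DNA. In mouse embryonic stem cells this route is best known from leukemia inhibitory factor, which acts through the receptor chains Lifr and Il6st (gp130) on Jak1, Jak2 and Stat3. Phosphorylation is the switch of the pathway, and an expression array measures mRNA only.

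Some of the probes that carry the differences described below are shown first. For the 4 genes with more than 1 probe the size of the ratio differed between probes. At BP10 its direction differed too for Stat3 and Stat5b. Each name is followed by the base of the transcript at which the array design places the start of the probe. Each probe has 60 bases. The Stat6 probe at base 300 is given whole, the others by their first 30 bases, and nothing is capitalized since no part of a probe is singled out.
Tyk2 probe at base 3935: gccatgacctgaacagaccttgaatatgca
Jak3 probe at base 3223: acgtgtggagcttcggagtggtgttgtacg
Jak3 probe at base 3542: tggctagagcagagacatctcctgcacgcg
Stat3 probe at base 2953: cactctgtgagctgataccccaggctggga
Stat6 probe at base 300: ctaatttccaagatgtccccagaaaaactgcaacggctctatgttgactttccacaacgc
Stat6 probe at base 2354: acagtccatccactcatttcagagcctaga
Stat6 probe at base 3450: tctgaaaggctgagacattgtataagacag

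A level is the log2 signal of a probe minus the 75th percentile of the gene spots of its array, and a log2 ratio is the difference of 2 levels. Levels of different probes are not compared, since probes bind with different strength. The error given with a ratio is a spot SD: the SD between the 10 spots of probes printed 10 times, taken at the brightness of the probe in question and combined over both arrays as the root of the summed squares. It covers the array alone. A gene or probe was called where the ratio reached 2-fold and either array of the pair read the probe well above background. The control array was read in one scan session and both BP arrays together in another, so the effect of BP and that of the session cannot be told apart against the control, while BP40 against BP10 lies within 1 session. All 3 arrays were on the same slide. Well above background were 81.7% of gene spots in the control, 68.3% in BP10 and 69.1% in BP40, and 0 were saturated. The 6 brighter of the 10 E1A spike-in probes, which read RNA added by the laboratory, had median log2 ratios of -0.06 for BP10 against control, 0.80 for BP40 against control and 0.76 for BP40 against BP10. Scaled on these probes in place of the gene spots, the median of all genes shifted by 0.07, -0.80 and -0.87 in the same order, so directions that involve BP40 hold relative to the other genes of the array. All 15 fibroblast markers examined were above background on all 3 arrays, with median log2 ratios of -0.58 at BP10 and -0.60 at BP40. Of the 15, 2 and 3 were called lower. Over all genes the medians were -0.23 and -0.11, and 10.3% and 9.01% were called lower.

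Most kinases and factors stayed within 2-fold of the control. Tyk2 was higher at both doses, and Stat4 was lower by a bound short of 2-fold. Of the 9 genes, 1 was called at BP10 and 1 at BP40, in each case Tyk2 and higher, and 0 differed by 2-fold between the BP arrays. Over all genes, 12.9% were called at BP10 (2.61% higher, 10.3% lower), 11.5% at BP40 (2.51% higher, 9.01% lower) and 3.66% for BP40 against BP10 (1.88% higher, 1.78% lower), so 1 gene of 9 is near the background share. Of the 14 probes, the one of Tyk2 was called at each dose and 0 between the doses, beside 12.4%, 11.0% and 3.73% of all probes. At BP10 the 9 genes had a median log2 ratio of -0.29, against -0.23 over all genes. At BP40 it was 0.02, against -0.11, and for BP40 against BP10 it was 0.16, against 0.06. On all 3 arrays 13 of the 14 probes were well above background, and the remaining one, of Stat4, on the control array only.

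**Figure D1:**
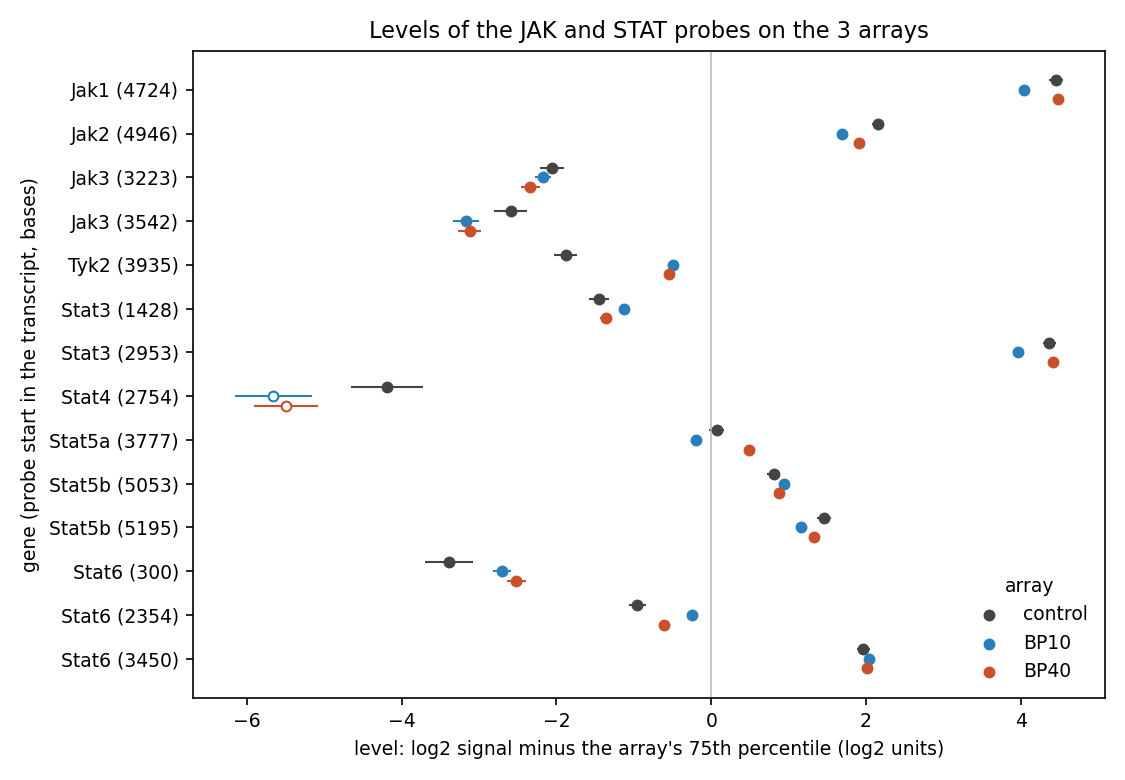
Level of each of the 14 probes (x axis, log2 units relative to the 75th percentile of the array) in the control, BP10 and BP40, named by gene and by the start of the probe in its transcript. Bars are the spot SD at that brightness and hollow points lie below background; Tyk2 was the only probe whose BP levels, -0.49 and -0.54, both lay over 1 log2 unit above its control level of -1.88.

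Jak1, which pairs with receptor chains of the gp130, interferon and common gamma families, was read by 1 probe at chr4:100825094-100825153 (mm9, minus strand). Its signal was 38293 in the control, 23074 in BP10 and 27048 in BP40, and its levels were 4.46, 4.04 and 4.48. BP10 was the low array, and the control and BP40 lay within the spot SD of each other. The log2 ratio was -0.42 (spot SD 0.11) at BP10, 0.02 (0.11) at BP40 and 0.44 (0.08) for BP40 against BP10. The last of these was 5.70 times its spot SD and changed sign to -0.43 with the spike-in scaling. Probes as bright as this one had median log2 ratios of -0.18 at BP10 and 0.26 for BP40 against BP10, and with these taken off the Jak1 ratios were -0.24 and 0.18.

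Jak2, the kinase of the erythropoietin, growth hormone and prolactin receptors and a partner of gp130, was read at chr19:29387487-29387546 (plus strand). Its signal was 7755 in the control, 4534 in BP10 and 4575 in BP40, and its levels were 2.15, 1.69 and 1.91. Both BP arrays lay below the control and BP10 lay lowest. The log2 ratios were -0.46 (spot SD 0.09) at BP10, -0.24 (0.10) at BP40 and 0.22 (0.07) for BP40 against BP10, or 4.94, 2.49 and 3.01 spot SDs. With the median of probes of like brightness taken off they were -0.40, -0.31 and 0.10. None reached 2-fold, except with the spike-in scaling at BP40 (-1.04). The spread between probes of 1 gene is wider than that between spots: its median SD over 3688 genes with 2 probes was 0.27 at BP10, 0.19 at BP40 and 0.20 for BP40 against BP10. No second Jak2 probe was on the array to set against it.

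Jak3, the kinase that binds the common gamma chain and is known mainly from blood cells, had 2 probes. The upstream probe, at chr8:74210801-74210860 (plus strand), gave signals of 419 in the control, 311 in BP10 and 241 in BP40, with log2 ratios of -0.11 (spot SD 0.18) at BP10 and -0.28 (0.19) at BP40. These 3 levels lay within 2 spot SDs of each other. The downstream probe, at chr8:74214085-74214144, gave 289, 156 and 140, with log2 ratios of -0.58 (0.27) and -0.53 (0.26). Both BP levels lay below the control, by 2.10 and 2.03 spot SDs. With the median of probes of like brightness taken off, the ratios were -0.22 and -0.18, under 1 spot SD. Of probes of this brightness, 18.9% were called lower at BP10 and 18.1% at BP40. The array design lists this downstream probe for a second gene as well, Insl3, a peptide hormone gene that directly follows Jak3 on chromosome 8, so its signal cannot be assigned to Jak3 alone.

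Tyk2, the kinase of the interferon, interleukin-12 and interleukin-10 family receptors, was the one called member. Its probe lies at chr9:20909321-20909380 (minus strand), and its signal was 475 in the control, 1000 in BP10 and 835 in BP40. The BP signals were higher before any scaling between arrays, although the 75th percentile of the gene spots was lower on the BP arrays (1431 and 1237) than in the control (1765). In levels these were -1.88, -0.49 and -0.54. The log2 ratio was 1.39 (spot SD 0.16) at BP10 and 1.34 (0.16) at BP40, which is 2.62-fold and 2.53-fold higher, or 8.57 and 8.21 spot SDs. BP40 against BP10 was -0.05 (0.09), under 1 spot SD. Of 2756 probes of similar brightness, 1.89% were called higher at BP10 and 1.34% at BP40, and their median log2 ratios were -0.05 and -0.03. The call was lost with the normexp background correction, which gave 0.85 and 0.79, with a 3-fold threshold, and at BP40 with the spike-in scaling (0.53).

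The array held 1 Tyk2 probe, so no second reading of the rise was at hand. Its neighbours in the genome are Raver1 and Cdc37. The genes most like it were sought among the 25034 gene names above background on all 3 arrays, by the Euclidean distance of the 2 log2 ratios against the control. Nearest were Vmn2r4, a vomeronasal receptor gene (1.37 and 1.31, distance 0.04), and transcribed intervals without a gene symbol on chromosomes 12 and 8 (distances 0.04 and 0.04). Within the median SD between 2 probes of a gene lay 94 names.

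**Figure D2:**
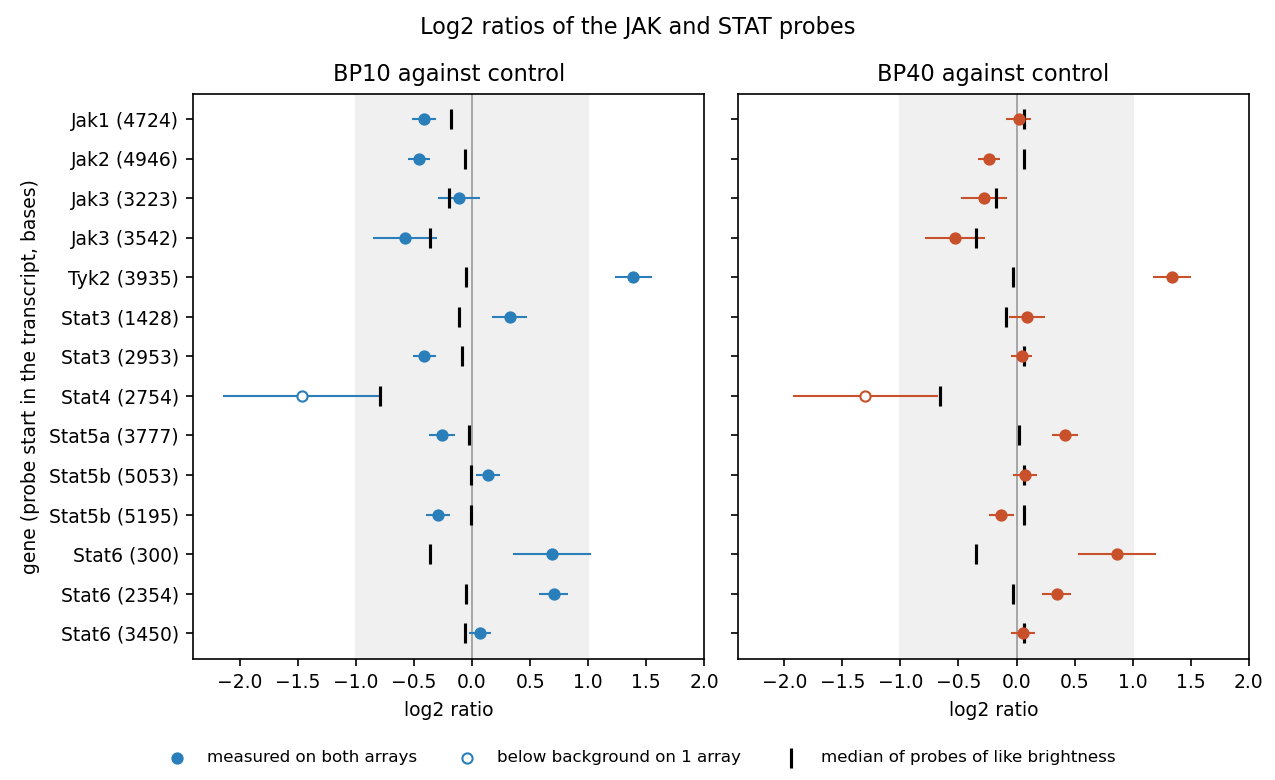
Log2 ratio of each of the 14 probes for BP10 (left) and BP40 (right) against the control, with the spot SD as bars, and a tick for the median ratio of all probes in the same brightness class. The grey band spans 2-fold either way; Tyk2 (1.39 and 1.34) lies beyond it on the right, and Stat4 (hollow, measured at -1.46 and -1.30) was below background on the BP arrays.

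Stat3, the factor of the gp130 cytokines, had a bright probe printed 10 times, which gives its own spot spread. This probe lies at chr11:100749598-100749657 (minus strand). In the control the 10 spots ran from 32707 to 39211 with a median of 35694. In BP10 they ran from 20188 to 23349 with a median of 21878, and in BP40 from 24651 to 26924 with a median of 25926. As raw signal the 3 arrays did not overlap. As levels, BP10 (3.85 to 4.06) stayed apart from the control (4.23 to 4.49) and BP40 (4.34 to 4.47), and the latter pair overlapped. The log2 ratio was -0.41 (spot SD 0.10) at BP10, 0.04 (0.09) at BP40 and 0.45 (0.07) for BP40 against BP10. Since each level averages 10 spots, the standard errors over spots were smaller, at 0.03, 0.03 and 0.02, and they too cover the array alone. The ratio of BP40 against BP10 became -0.42 with the spike-in scaling. With the median of probes of like brightness taken off, the ratio was -0.32 at BP10 and 0.30 for BP40 against BP10.

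**Figure D3:**
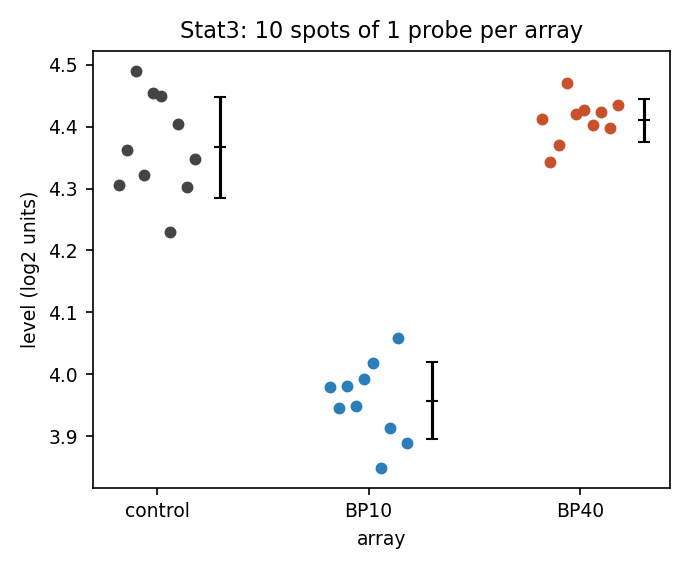
Level (y axis, log2 units) of each of the 10 spots of the Stat3 probe at base 2953 on the 3 arrays, with the mean and SD over spots beside them. The 10 BP10 spots (3.85 to 4.06) lie below all control spots and all BP40 spots, whose ranges overlap; the spots share 1 RNA sample per array and are not replicates of a culture, and with scaling on the spike-in probes BP40 instead lies below BP10.

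A second Stat3 probe, upstream of the bright one, gave another picture. Its signal was 639 in the control, 643 in BP10 and 474 in BP40, and its levels were -1.45, -1.13 and -1.36. BP10 was the highest of the 3, where the bright probe had it lowest. The log2 ratio was 0.32 (spot SD 0.15) at BP10, 0.09 (0.16) at BP40 and -0.23 (0.10) for BP40 against BP10. The direction of Stat3 at BP10 thus differed between its 2 probes, by 0.73, and neither reached 2-fold.

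Stat4, which carries interleukin-12 signals in T and natural killer cells, was at the edge of detection. Its probe, at chr1:52163802-52163861 (plus strand), had a signal of 95.5 in the control, 27.8 in BP10 and 27.0 in BP40. It was well above background on the control array and not on the others. Against the lowest single-spot level well above background on each BP array, the control was at least 1.83-fold higher than BP10 and at least 1.82-fold higher than BP40, so the gene was not called. With the measured signals in place of the bound the log2 ratios were -1.46 (spot SD 0.68) and -1.30 (0.62) and would pass 2-fold. Probes of this brightness had median log2 ratios of -0.79 and -0.66. With these taken off the Stat4 ratios were -0.67 and -0.64, and with normexp they were -0.39 and -0.22, all within 2-fold. Among probes of this brightness, 10.9% were called lower at BP10 and 10.3% at BP40.

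Jak3 and Stat4 are best known from leukocytes, so 18 leukocyte markers were read beside them. Every array read the same 13 of these above background, and no array did so for Cd3g (T cells), Ms4a1 (B cells) or Klrb1c (natural killer cells). Ncr1, another natural killer cell marker, and Cd79b, of B cells, were above background on 1 array each. The summed signal of the 18, not scaled between arrays, was 75995 in the control, 47503 in BP10 and 46168 in BP40, and Itgam alone gave 52.8% of it in the control. Relative to the 75th percentile, the median log2 ratios of the 18 were -0.36 and -0.03. They did not move together: Lyz2 was called higher at both doses (1.26 at BP40), Cd3e was called lower at BP10, and Itgam had -0.44 and -0.42. Number of cells of a type and RNA per cell cannot be told apart in such bulk samples, and the part of other cell types in the Jak3 and Stat4 values was not tested. Among endothelial markers Cdh5 and Tie1, and among epithelial markers Cdh1 and Epcam, were below background on all 3 arrays, and the other 4 of 6 in each list were above it.

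Stat5a, a factor of the prolactin and growth hormone receptors, had the widest difference between the BP arrays among the members when levels were taken relative to the 75th percentile, and the narrowest with the spike-in scaling. Its probe, at chr11:100746373-100746432 (plus strand), had a signal of 1829 in the control, 1226 in BP10 and 1699 in BP40, and its levels were 0.07, -0.19 and 0.48. BP40 was highest and BP10 lowest. The log2 ratio was -0.26 (spot SD 0.11) at BP10, 0.42 (0.11) at BP40 and 0.68 (0.09) for BP40 against BP10. The last is 1.60-fold and 7.60 spot SDs, within 1 scan session, and became -0.19 with the spike-in scaling.

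Stat5b, the close relative of Stat5a, had 2 probes that start 142 bases apart. The first, at chr11:100642187-100642246 (minus strand), had signals of 3050 in the control, 2692 in BP10 and 2235 in BP40. Its log2 ratios were 0.14 (spot SD 0.10) at BP10 and 0.07 (0.11) at BP40. All its differences were under 2 spot SDs. The other, at chr11:100642045-100642104, had signals of 4777, 3130 and 3036 and log2 ratios of -0.29 (0.10) and -0.13 (0.11). BP10 was its lowest level, by 2.88 spot SDs from the control. Between BP40 and BP10 the probes gave -0.06 and 0.16. Stat5b, Stat5a and Stat3 are consecutive genes on chromosome 11, and the 0.68 of Stat5a and 0.45 of the bright Stat3 probe were not matched by either Stat5b probe.

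Stat6, the factor of interleukin-4 and interleukin-13, had 3 probes on chromosome 10, all on the plus strand. The probe at base 3450 of the transcript, at chr10:127097689-127097748, gave signals of 6802 in the control, 5735 in BP10 and 4916 in BP40. Its levels of 1.96, 2.03 and 2.02 were within 1 spot SD of each other. The probe at base 2354, at chr10:127095694-127095753, gave 900, 1178 and 796. Its log2 ratios were 0.70 (spot SD 0.13) at BP10 and 0.35 (0.13) at BP40, with BP10 the highest level. The probe at base 300, at chr10:127083983-127084042, was the dimmest, with 167 in the control, 216 in BP10 and 212 in BP40. Its log2 ratios were 0.69 (0.33) and 0.87 (0.34), and both BP levels lay above the control by over 2 spot SDs.

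The Stat6 probe at base 300 passed 2-fold at both doses under 2 alternatives, quantile normalization (1.05 and 1.23) and a correction that takes off the median ratio of probes of like brightness (1.05 and 1.22). With the spike-in scaling its ratio at BP40 was 0.06. The gene as represented by its bright probe was within 2-fold in each of these settings.

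For all 4 genes with several probes the first probe along the transcript had a higher ratio against the control than the last. First minus last, the difference of log2 ratios at BP10 was 0.73 for Stat3, 0.62 for Stat6, 0.46 for Jak3 and 0.43 for Stat5b. At BP40 it was 0.05, 0.81, 0.25 and 0.21. The whole array leaned the same way: over 2360 pairs of probes of 1 transcript at least 500 bases apart, the median difference was 0.29 at BP10 with 68.8% of pairs above 0, and 0.11 at BP40 with 60.4%. The pairs of Jak3 (319 bases apart) and Stat5b (142) are closer than these, and the downstream Jak3 probe is the one also listed for Insl3. In 521 pairs of like brightness, within 1 log2 unit, the medians were 0.20 and 0.11. In 1306 pairs whose upstream probe was dimmer by over 1 log2 unit, as in Stat3 and Stat6, they were 0.38 and 0.06, and in 533 pairs where it was brighter by as much they were 0.06 and 0.22. Between BP40 and BP10 the median was -0.17 over all pairs, -0.31 with the upstream probe dimmer and 0.14 with it brighter, beside -0.69 for Stat3 and 0.19 for Stat6. Among the pairs with a dimmer upstream probe the upper quartile was 0.68 at BP10, with Stat3 above it and Stat6 below, and 0.32 at BP40, with Stat6 above it and Stat3 below. Brightness, transcript position and isoform differ together between these probes and cannot be told apart here.

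**Figure D4:**
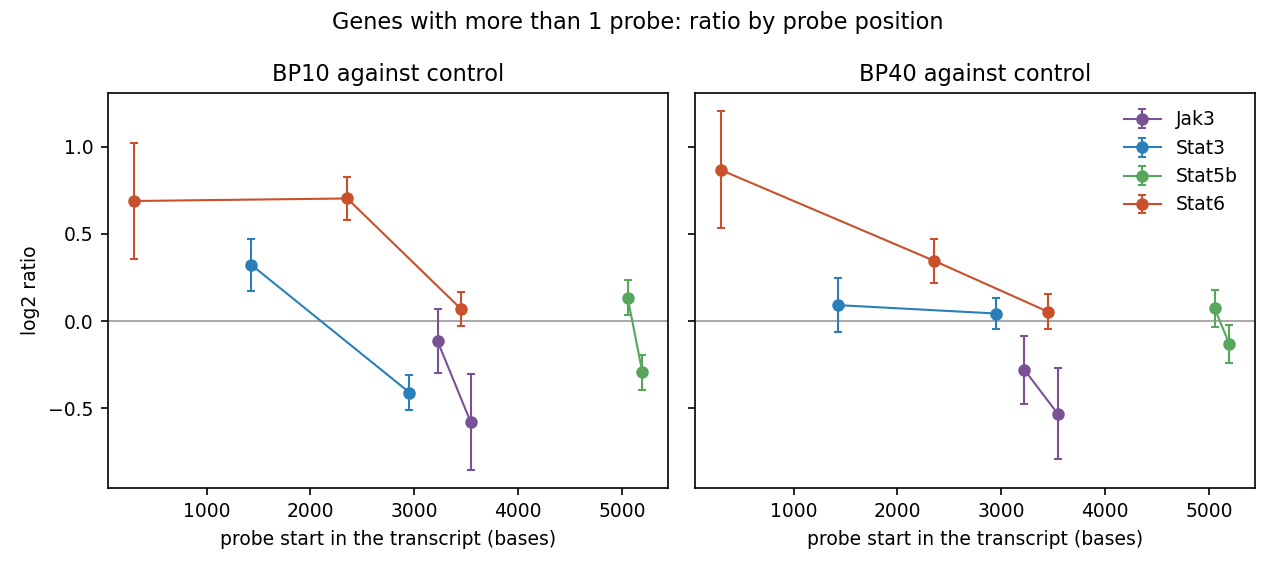
Log2 ratio against the control (y axis) by the start of the probe in its transcript (x axis, bases) for the 4 genes with more than 1 probe, at BP10 (left) and BP40 (right), with the spot SD as bars. In each gene the leftmost probe has a higher ratio than the rightmost, by 0.43 to 0.73 at BP10 and 0.05 to 0.81 at BP40.

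The promoters of the 9 genes were searched for the letters that STAT dimers bind. In the 250 bases before each start in RefSeq (GRCm38.p6), TTCNNNGAA was found in 7.02% of 32851 promoters and the wider form associated with Stat6, which has 4 bases between TTC and GAA in place of 3, in 5.85%. Both motifs read the same on either strand. None of the 12 promoters of the 9 genes held either, which says only that these letters are not in these windows.

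The other genes of the pathway moved about as often as the whole array did. Of 132 further JAK-STAT genes, all on the array, 106 were detected above background by all 3 arrays and 11 by no array. At BP10, 3 were called higher and 11 lower, or 10.6% against 12.9% of all genes. At BP40, 2 were called higher and 10 lower (9.09% against 11.5%), and for BP40 against BP10 2 higher and 5 lower (5.30% against 3.66%). Their median log2 ratios were -0.23, -0.13 and 0.10, beside -0.23, -0.11 and 0.06 over all genes.

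Stat2, a STAT of the interferon response that was not a member, had levels of 1.93 in the control, 1.14 in BP10 and 2.12 in BP40, so that BP10 was low. Its log2 ratio was -0.79 at BP10, 0.19 at BP40 and 0.98 for BP40 against BP10, just inside 2-fold. Irf9, its partner in the interferon-stimulated complex, had -0.71, -0.08 and 0.63. The spike-in shift of -0.87 for BP40 against BP10 would leave Stat2 just above 0 and take Irf9 below it.

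Among 44 receptor chains, 2 were called higher and 4 lower at BP10, and 2 higher and 3 lower at BP40, or 13.6% and 11.4% against 12.9% and 11.5% of all genes. Il6st, the shared gp130 chain, had levels of 3.92 in the control, 3.42 in BP10 and 3.36 in BP40, a log2 ratio of -0.50 and -0.56. Lifr on its brightest probe had -0.51 and -0.34, and its other probes 0.54 and 0.56 in one case and -0.25 and -0.37 in the other, so the direction of Lifr depended on the probe. Prlr, the prolactin receptor, was called higher at both doses (1.39 and 1.24), with levels of -3.14, -1.75 and -1.90. A second Prlr probe, above background in the control only, went the other way, with bounds on the log2 ratio of -0.41 and -0.40 or lower. Il22ra2, a soluble receptor that binds interleukin-22 (-1.91 and -1.41), and Il5ra, the interleukin-5 receptor chain (-1.37 and -1.52), were called lower at both.

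Of 38 ligands, 1 was called higher and 3 lower at BP10, a smaller share than the 12.9% of all genes. At BP40 0 were called higher and 6 lower, a larger share than that of all genes (15.8% against 11.5%). Osm, a gp130 cytokine, had levels of -2.68 in the control, -4.12 in BP10 and -3.92 in BP40 and was called lower at both doses (-1.44 and -1.24). Lep, the satiety hormone leptin, was called lower at both as well (-1.50 and -1.52). Lif itself was dim and within 2-fold, at -0.38 and -0.09. For BP40 against BP10, 1 ligand was called higher and 2 lower, or 7.89% against 3.66% of all genes. The one called higher was Il11, another gp130 cytokine (1.09). Those called lower were Epo, with a bound on the log2 ratio of -2.37 or lower, and Prl (-1.62). The spike-in scaling shifts each ratio of BP40 against BP10 by -0.87, and with it Il11 would not reach 2-fold.

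The 19 brakes of the pathway, SOCS and PIAS proteins and phosphatases among them, were all above background on all 3 arrays. At BP10 1 was called lower, Socs3, and at BP40 0 were called, or 5.26% and 0% against 12.9% and 11.5% of all genes. Socs3, which is induced by Stat3 and blocks gp130 and the JAKs bound to it, had levels of 3.15 in the control, 2.04 in BP10 and 2.96 in BP40. Its log2 ratio was -1.10 at BP10, -0.18 at BP40 and 0.92 for BP40 against BP10. With the spike-in shift of -0.87 the last of these would stay only narrowly above 0. BP10 was thus the low array for Socs3, as it was for Jak1, Jak2, the bright Stat3 probe, Stat5a, the downstream Stat5b probe and Stat2. With the spike-in scaling BP40 lay below BP10 for the member genes among these. The upstream Stat3 and Stat5b probes, Tyk2 and the Stat6 probes at bases 2354 and 3450 instead had BP10 highest. For Tyk2, Stat5b and Stat6 at base 3450 it led BP40 by under 1 spot SD. Over all genes the median log2 ratio was -0.23 at BP10 and 0.06 for BP40 against BP10. The median of the brakes was -0.03 at BP10 and 0.00 at BP40.

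Of 10 partner proteins, 0 were called against the control at either dose, beside 12.9% and 11.5% of all genes. Ep300, a coactivator that STATs recruit, was called lower for BP40 against BP10 (-1.02), where 3.66% of all genes were called. Of 24 genes known as targets of STATs, 4 were called lower at BP10, 1 at BP40 and 0 higher at either, or 16.7% and 4.17% against 12.9% and 11.5% of all genes. The targets lower at BP10 were Socs3, the transcription factor gene Cebpd (-1.19), Bcl3 (-1.33) and Ccl11, and the one at BP40 was Ccl11. Ccl11, the chemokine eotaxin, which interleukin-4 induces through Stat6, had levels of -1.78 in the control, -4.93 in BP10 and -4.53 in BP40. Its log2 ratios of -3.15 and -2.74 were the farthest below 0 among the targets at both doses. The median of the targets was -0.07 at BP10 and -0.12 at BP40.

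**Figure D5:**
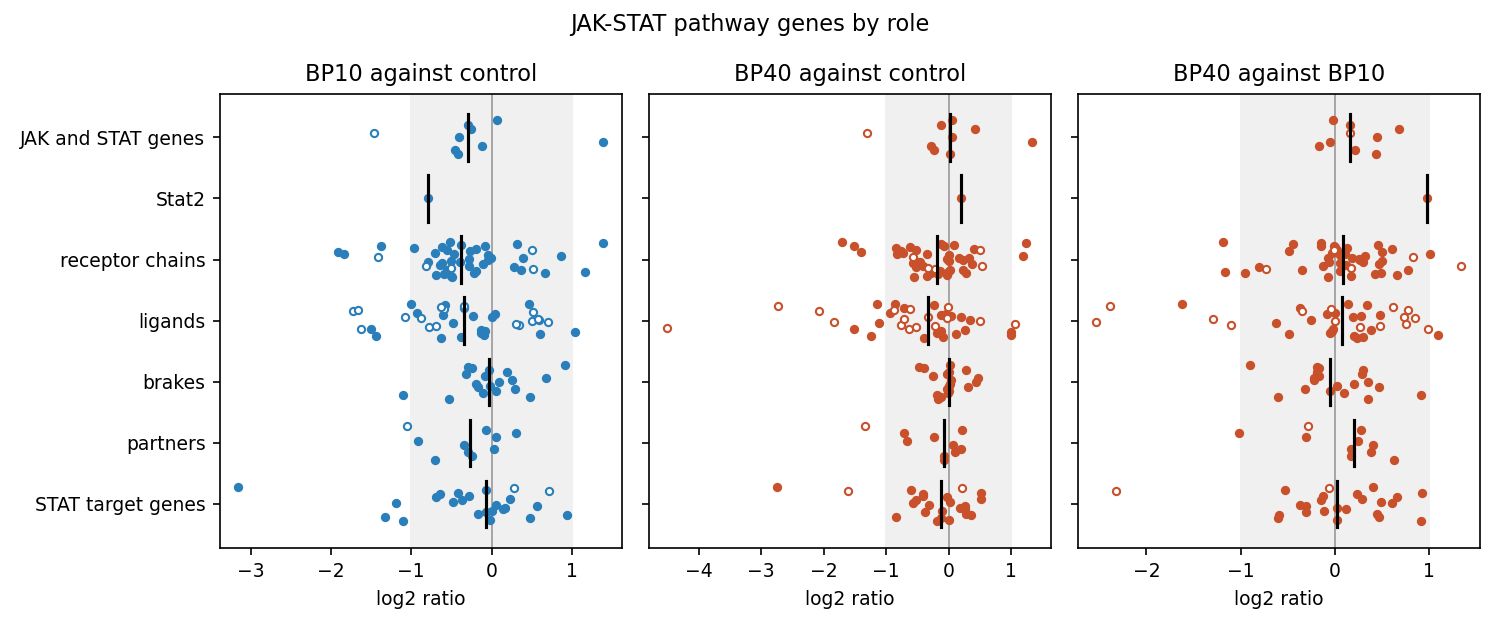
Log2 ratio (x axis) of the 9 JAK and STAT genes and of the other pathway genes by role, for BP10 and BP40 against the control and for BP40 against BP10; each point is a gene, hollow where it was not above background on all 3 arrays and placed at its measured ratio, and black lines are medians. The grey band spans 2-fold either way. Most points lie inside it in each role, with Tyk2 beyond it among the kinases and factors (1.39 and 1.34) and Ccl11 among the targets (-3.15 and -2.74); on the spike-in scaling the panels with BP40 shift to the left.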

How the data were processed

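Total RNA of MEF without BP (control), with BP10 or with BP40 was amplified with Cy3 label and read on Agilent mouse 8×60K arrays, 1 per condition. The authors deposited the output of Feature Extraction 10.5.1.1, with 1 intensity for each spot, background-subtracted and detrended within each array but with no scaling across arrays. A deposited table of the whole series held the same values (100% equal within a relative tolerance of 0.0001), with 0 unmapped columns. Other columns used here, per the file headers, are flags and probe coordinates (mm9).

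The log2 intensity minus the 75th percentile of gene spots not flagged as outliers was used, and spots of a probe were averaged. A gene was represented by its probe above background on most arrays, then the brightest. Where 1 array lacked signal, the ratio was bounded by the lowest single-spot level well above background there. RefSeq accessions named 26425 probes, and the file's names the rest. Exons and UTRs were not assigned, as no mm9 annotation was used. Tools were Python 3.11.15, numpy 2.4.6, pandas 2.3.3, matplotlib 3.10.9 and R 4.3.3 with limma 3.58.1 (normexp, offset 50). The number of arrays limits the precision.

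Members, gene lists (other STATs, receptors, ligands, brakes, partners, targets; fibroblast, leukocyte, endothelial and epithelial markers), named genes and alternatives were chosen with earlier results of these data known. Named were all member probes, pathway genes called the same way at both doses, Stat2, Il6st, Lifr and Socs3, and the 3 genes most like a called member. Irf9, Lif, Il11, Epo, Prl, Ep300, Cebpd, Bcl3 and leukocyte markers were named after their values were seen. One further gene named by this rule and 1 probe sequence are not reported here.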

Additional observations from a re-analysis of the deposited data

How the results depend on the processing

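No paired analysis was possible because the design holds a single array for each condition. The tolerance was 1.5 times for a count and the median SD between 2 probes of a gene for a log2 ratio. Of 147 recomputed counts and medians, 101 stayed within it and 46 did not. With the spike-in scaling the median of the members changed sign at BP40 (0.02 to -0.78) and between doses (0.16 to -0.71). Within the tolerance, it was also below 0 at BP40 with quantile normalization (-0.02), normexp (-0.10) and the brightness trend subtracted (-0.05). The same held with the 75th percentile taken over probes above background on all arrays (-0.06). That of the other pathway genes changed sign between doses (0.10 to -0.77). Of 189 recomputed ratios of single members, 157 stayed within it and 32 did not, 18 of these with the spike-in scaling. For these the cause was not tested, although a threshold or filter moves a count by construction. The use of the measured signal in place of a bound was chosen after seeing the data.

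Of the 9 member genes, 2 were called at BP10 and 2 at BP40 (Tyk2 higher, Stat4 lower) with no filter on dim probes, at 1.5-fold and with the measured signal, and 0 at both doses at 3-fold and with normexp. At 1.5-fold 1 was called for BP40 against BP10, Stat5a. The spike-in scaling called 3 lower at BP40 against control (Jak2, Jak3, Stat4) and 1 against BP10 (Jak3). Of the 14 probes, 2 were called at each dose with quantile normalization, the brightness trend subtracted, no filter or the measured signal, and 0 at 3-fold or with normexp. A 1.5-fold threshold called 4 at BP10, 3 at BP40 and 1 between doses, and the spike-in scaling 4 at BP40 and 3 between doses. The other pathway genes called at BP10, BP40 and between doses numbered 39, 27 and 23 under a 1.5-fold threshold. They numbered 3, 4 and 2 under a 3-fold one, and 8, 6 and 2 with normexp. With the spike-in scaling there were 51 at BP40 and 36 between doses, and with no filter 12 between doses. Shares of all genes called at 1.5-fold, at 3-fold, with no filter or with the measured signal are not given here. Counts under those settings can therefore not be set against the array or against the shares at 2-fold. The spike-in scaling took the median of the members to -0.78 at BP40 and -0.71 between doses, and that of the other pathway genes to -0.93 and -0.77.

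Over its settings the Tyk2 ratio ran from 0.85 to 1.57 at BP10 and from 0.53 to 1.52 at BP40. Of all genes called at BP10 and BP40, 20.3% and 21.8% were higher, against 54.3% and 55.2% with quantile normalization, 65.6% and 61.0% with the brightness trend subtracted, 32.9% and 46.4% with normexp and 25.4% and 1.25% with the spike-in scaling. Quantile normalization shifted the median of all genes by 0.19 and 0.11, normexp by 0.14 and 0.18, and the trend by 0.20 and 0.11. Genes called at BP10 numbered 4569, and 1444 with normexp. At BP40 they numbered 4096, against 1092 with normexp and 12922 with the spike-in scaling, and between doses 1300, against 535 and 7926. The spot SD of the Stat4 ratio was 0.68 at BP10, against 0.10 for the bright Stat3 probe.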
